A study of Mus musculus with 2 samples.

Results

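The genes described here are 10 genes of pericellular matrix remodelling in mouse embryonic fibroblasts (MEF): the hyaluronan synthases Has1 and Has2, the matrix metalloproteinases Mmp3, Mmp10 and Mmp13, the ADAMTS proteases Adamts1 and Adamts4, the metalloproteinase inhibitors Timp1 and Timp3, and the hyaluronan-binding protein gene Tnfaip6. They were found by gene symbol among the probes other than control probes. All 10 genes were on the array, read by 12 probes, out of 28233 genes and 35774 probes with a symbol. Tnfaip6 had 3 probes and every other gene had 1, and each of these probes was printed as a single spot.

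Total RNA was hybridized to 2 dual-color Agilent arrays, 1 for each condition. Both conditions came from a single immortalized MEF line with the genotype Rosa26ERT2 Cre: THOC5 (flox/flox) on the background C57BL/6 x B6:129 Ola, in which tamoxifen activates a Cre recombinase expressed from the ubiquitous Rosa26 locus. Control cells, labelled wildtype, carried the same alleles and received no tamoxifen. THOC5-depleted cells, labelled THOC5 knockdown, were treated with tamoxifen for 2 days according to the labels. The methods state 10 μM tamoxifen for 24 h followed by growth medium for 24 h, serum starvation for 24 h, and stimulation with 20% serum. On each array Cy3 carried RNA of unstimulated cells and Cy5 carried RNA of cells given fetal calf serum for 1 h. Tamoxifen exposure and loss of THOC5, a subunit of the mRNA export complex THO/TREX, cannot be told apart in this design. Each condition was a single array, so the values below have no replicates and the conditions were not tested against each other.

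Fibroblasts constantly rebuild the matrix around them. Hyaluronan synthases at the plasma membrane extrude the polysaccharide hyaluronan, and the protein TSG-6, encoded by Tnfaip6, links heavy chains of inter-alpha-inhibitor to it. Metalloproteinases cleave collagens, proteoglycans and other matrix proteins, and ADAMTS1 and ADAMTS4 cleave the large hyaluronan-binding proteoglycans. TIMP proteins block matrix metalloproteinases, and TIMP-3 also inhibits ADAMTS proteases. Several of these genes are textbook targets of growth factors and cytokines in fibroblasts, and AP-1 sites close to the start of stromelysin and collagenase genes are a classical example of a growth factor response element.

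Mmp13, Mmp3 and Mmp10 belong to the metalloproteinase gene cluster of chromosome 9. Their probes start at 7282762, 7455751 and 7510011 on mm9, so that the probe starts of Mmp13 and Mmp3 are 173.0 kb apart and those of Mmp3 and Mmp10 are 54.3 kb apart. The 250 bases upstream of the RefSeq start (GRCm38.p6) are shown for these neighbours because their serum values differed, and for Has1 because it had the highest serum ratio of the 10 genes. The stretches are chr9:7272264-7272513 (plus strand, Mmp13), chr9:7445572-7445821 (plus strand, Mmp3), chr9:7502092-7502341 (plus strand, Mmp10) and chr17:17855189-17855438 (minus strand, Has1). Capitals mark the matches to an AP-1 motif (TGANTCA), a cyclic AMP response element (CRE, TGACGTCA) or a TATA box (TATAAA).
Mmp13: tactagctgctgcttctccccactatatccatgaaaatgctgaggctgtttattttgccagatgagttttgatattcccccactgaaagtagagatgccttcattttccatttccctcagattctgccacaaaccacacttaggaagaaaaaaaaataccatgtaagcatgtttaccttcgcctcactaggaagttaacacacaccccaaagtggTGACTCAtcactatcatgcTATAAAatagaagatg
Mmp3: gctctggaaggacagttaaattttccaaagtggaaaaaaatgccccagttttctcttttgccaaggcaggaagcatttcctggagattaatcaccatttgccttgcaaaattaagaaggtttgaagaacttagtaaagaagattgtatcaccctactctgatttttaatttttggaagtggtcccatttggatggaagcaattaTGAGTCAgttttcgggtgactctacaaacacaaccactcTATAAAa
Mmp10: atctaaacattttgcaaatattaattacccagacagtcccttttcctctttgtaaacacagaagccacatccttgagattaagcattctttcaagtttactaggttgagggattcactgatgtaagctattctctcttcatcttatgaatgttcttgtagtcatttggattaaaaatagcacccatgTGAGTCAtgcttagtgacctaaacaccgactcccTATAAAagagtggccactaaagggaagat
Has1: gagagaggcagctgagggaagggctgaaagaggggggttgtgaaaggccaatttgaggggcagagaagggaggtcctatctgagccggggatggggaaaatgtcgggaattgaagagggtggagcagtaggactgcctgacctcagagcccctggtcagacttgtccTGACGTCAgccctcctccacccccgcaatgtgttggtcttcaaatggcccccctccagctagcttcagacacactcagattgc

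Promoters were given for 8 of the 10 genes, with Has2 and Adamts4 not matched. Both strands were searched, and the AP-1 and CRE motifs do not overlap in any of these stretches. An AP-1 match was present in 4 of the 8 stretches (Mmp3, Mmp10, Mmp13 and Tnfaip6), against 6.87% of 27025 RefSeq promoters searched over the same 250 bases. It ended 40 bases upstream of the start in Mmp3, 57 in Mmp10, 29 in Mmp13 and 136 in Tnfaip6. A TATA box match was present in 4 stretches (Adamts1, Mmp3, Mmp10 and Mmp13), against 13.0% of all promoters. The CRE match was found in Has1 alone of the 8, against 1.62% of all promoters. No stretch held the CArG box bound by serum response factor (1.40% of all promoters) or the NF-kappaB consensus (4.78%). These matches describe the letters of a short window and are not evidence of binding.

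The array files also give the sequence of each probe. Since the study concerns 3′ ends, the probes were searched for the polyadenylation hexamer AATAAA, which was present in 3 of the 12 probes (25.0%) and in 12.6% of all 39429 probes with a sequence. For these 3 probes, 30 bases in transcript direction are shown with the hexamer in capitals, from chr15:56497372-56497401 (minus strand, Has2), chrX:20451826-20451855 (plus strand, Timp1) and chr2:51912172-51912201 (plus strand, the most downstream Tnfaip6 probe) on mm9.
Has2: acacaccctgacAATAAAtgaaactaaaac
Timp1: cttagatggtgaAATAAAgaactatcagac
Tnfaip6: taaatattgctgtAATAAAtacttttggat

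Without control spots, 43020 spots were read per array, of which 62.1% to 64.4% per channel were called well above background by the scanner software. All 12 probes were well above background in all 4 channels, no spot was saturated, and none of the 12 was marked as an outlier. Thoc5 itself was 7.08-fold lower in unstimulated and 5.38-fold lower in stimulated THOC5-depleted cells after quantile normalization between the arrays. All 8 fibroblast markers (among them Col1a1, Col3a1, Pdgfra and Vim) were above background in every channel, with summed signals from 262812 to 355398. Summed signals of the markers of other cell types ran from 94.5 to 187.1 for 4 epithelial genes, with Cdh1 below background in every channel, from 883.7 to 1133 for 3 endothelial genes and from 422.1 to 566.4 for 4 haematopoietic genes. Their part in the results was not tested, and in bulk RNA fewer cells of a type and less RNA per cell cannot be told apart.

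For the precision of single spots, probes that lie on each array in 10 copies were used. Of 399 such probes, 269 (control) and 270 (THOC5-depleted) entered the values. Across the copies, the log2 ratio had a median SD of 0.035 (control) and 0.039 (THOC5-depleted) for probes with mean signals of 100 to 1000. It was 0.021 on either array for brighter probes, and 0.137 (control) and 0.138 (THOC5-depleted) for probes under 100. It measures the scatter of spots inside an array, and the variation between cultures is not known.

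In control cells, 6 of the 10 genes had a signal 2-fold or more higher after serum: Has1, Has2, Mmp10, Mmp13, Timp1 and Timp3. The same was true of 2.65% of the 18770 genes compared. The count was 7 of 10, adding Tnfaip6, without dye normalization, where 29.5% of all genes passed. The median serum ratio (Cy5 over Cy3 processed signal) was 2.77 over the 10 genes and 0.985 over all genes. None of the 10 was lower by 2-fold, against 1.73% of all genes. Has1 and Mmp10 also passed the first 2 filters of the study's methods (rounded ratio above 4, Cy5 signal above 200). With each gene read at its brightest probe, 93 of the 28233 genes with a symbol passed these filters in all. Both Has1 and Mmp10 are on the study's own list of serum-inducible genes. That list was chosen on these arrays, so it is not independent evidence of their direction.

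In THOC5-depleted cells, 1 of the 10 genes, Has1, was at least 2-fold higher after serum, against 0.944% of the 18531 genes compared. The median serum ratio was 1.15 over the 10 genes and 0.990 over all genes. On that array, 0 of the 10 passed the methods' first filters, as did 28 of the 28233 genes with a symbol in all. Without dye normalization 5 of the 10 (Has1, Timp1, Timp3, Mmp13 and Tnfaip6) and 16.4% of all genes were at least 2-fold higher. The fold reduction, which is the serum ratio in control cells divided by that in THOC5-depleted cells, was 2 or more for 5 of the 10 genes (Mmp10, Has1, Has2, Timp1 and Mmp13), against 1.16% of 17199 genes. It was above 1 for 7 genes and below 1 for Adamts1, Adamts4 and Tnfaip6. Its median was 1.97 over the 10 genes and 0.995 over all genes.

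The log2 ratios were more widely spread on the control array, with a median absolute deviation over all genes of 0.194 against 0.136 on the THOC5-depleted array. When both arrays were scaled to one spread, 2 of the 10 genes (Mmp10 with 4.81 and Has2 with 2.38) and 0.581% of all genes reached a fold reduction of 2, and Has1 had 1.83, Timp1 1.95 and Mmp13 1.59. Spike-in RNAs, read by 10 control probes of 32 spots, gave a slope of 1.02 when the log2 ratios of the THOC5-depleted array were regressed on those of the control array, with log2 ratios that averaged 0.24 more on the THOC5-depleted one.

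**Figure D1:**
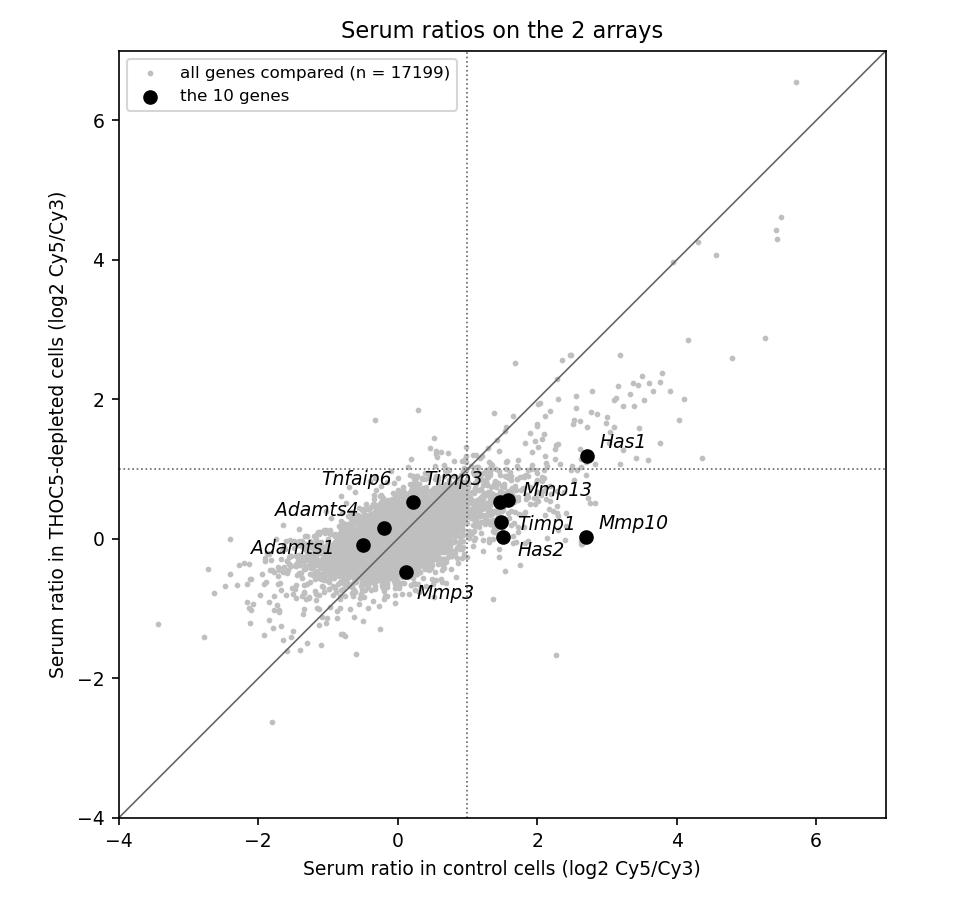
Log2 serum ratio in THOC5-depleted cells (y axis) against control cells (x axis) for 17199 genes well above background in all 4 channels (grey) and the 10 matrix genes (black), with the line of equal ratios and dotted lines at 2-fold. Has1, Has2, Mmp10, Mmp13, Timp1 and Timp3 lie to the right of the 2-fold line and below the line of equal ratios, and Has1 alone of the 10 also lies above the horizontal 2-fold line.

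Has1 and Has2 encode hyaluronan synthases, membrane enzymes that polymerize hyaluronan. The Has1 probe (chromosome 17 of mm9, 17980413 to 17980472, minus strand) gave processed signals of 717.2 in unstimulated and 4720 in serum-stimulated control cells, against 712.8 and 1626 in THOC5-depleted cells. These signals are not scaled between the arrays; after Aquantile, Has1 of THOC5-depleted cells was at 1.22 of control in unstimulated and at 0.423 in stimulated cells. The serum ratio was 6.58 in control cells, the highest of the 10 genes and rank 52 of 18770 genes, and 2.28 in THOC5-depleted cells, which gives a fold reduction of 2.88. Without dye normalization the ratios were 12.1 and 3.90.

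For Has2 (chromosome 15, 56497356 to 56497415, minus strand) the signals were 213.8 and 608.7 in control cells, against 223.1 and 227.3 in THOC5-depleted cells. Here the stimulated control sample stood above the other samples, and both signals of THOC5-depleted cells differed by less than the spread between spots. The serum ratios were 2.85 and 1.02, with log2 values of 1.51 and 0.03, and the fold reduction was 2.80. Without dye normalization the ratios were 4.88 and 1.68. With ratios scaled to one spread the fold reduction was 1.83 for Has1 and 2.38 for Has2.

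The 3 other genes nearest to Has1 in the plane of both log2 serum ratios, over 17198 genes compared and the 2 ratios, were Dlx2, Bhlhe40 and Snai1, all transcription factor genes. Dlx2 had serum ratios of 6.30 (control) and 2.23 (THOC5-depleted), at a distance of 0.071. Bhlhe40 had ratios of 6.47 and 2.14, and Snai1 of 6.17 and 2.21. Likeness over 2 ratios is a description of these arrays only.

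Mmp10 encodes stromelysin-2, a metalloproteinase with broad activity on matrix proteins. Its probe (chromosome 9, 7510011 to 7510070) was dim, with signals of 38.0 and 247.7 in control cells, against 44.9 and 45.8 in THOC5-depleted cells. Only the serum-stimulated control sample stood apart from the other samples. The serum ratio of 6.52 in control cells stood against 1.02 in THOC5-depleted cells, and the resulting fold reduction, 6.39, ranked 5 of 17199 genes. With normexp background correction and loess normalization, the first of which adds an offset to all signals, the control ratio was 3.60 and the fold reduction 3.53. Without dye normalization the ratios were 11.4 and 1.68.

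Mmp13 encodes collagenase-3, which cleaves fibrillar collagens. Its signals (chromosome 9, 7282762 to 7282821) were 177.9 and 531.3 in control cells, against 90.3 and 132.5 in THOC5-depleted cells. Both signals of THOC5-depleted cells were below both of the control cells. The serum ratio was 2.99 in control cells against 1.47 in THOC5-depleted cells, with a fold reduction of 2.04. The latter was 1.95 with normexp and loess, and without dye normalization the ratios were 5.07 and 2.42.

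Mmp3 encodes stromelysin-1 and lies between Mmp13 and Mmp10, with an AP-1 match in its promoter as in theirs. Its signals (chromosome 9, 7455751 to 7455810) were 150.8 and 163.5 in control cells, against 230.6 and 166.1 in THOC5-depleted cells. In these signals, which are not scaled between the arrays, the unstimulated THOC5-depleted sample was the highest and the other samples lay close together. After Aquantile, Mmp3 of THOC5-depleted cells was at 1.78 of control in unstimulated and at 1.18 in stimulated cells. Serum ratios of 1.08 (control) and 0.720 (THOC5-depleted) were obtained, neither past 2-fold, and without dye normalization these were 1.82 and 1.18. Of the 3 clustered metalloproteinase genes, Mmp10 and Mmp13 passed 2-fold in control cells and Mmp3 did not.

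**Figure D2:**
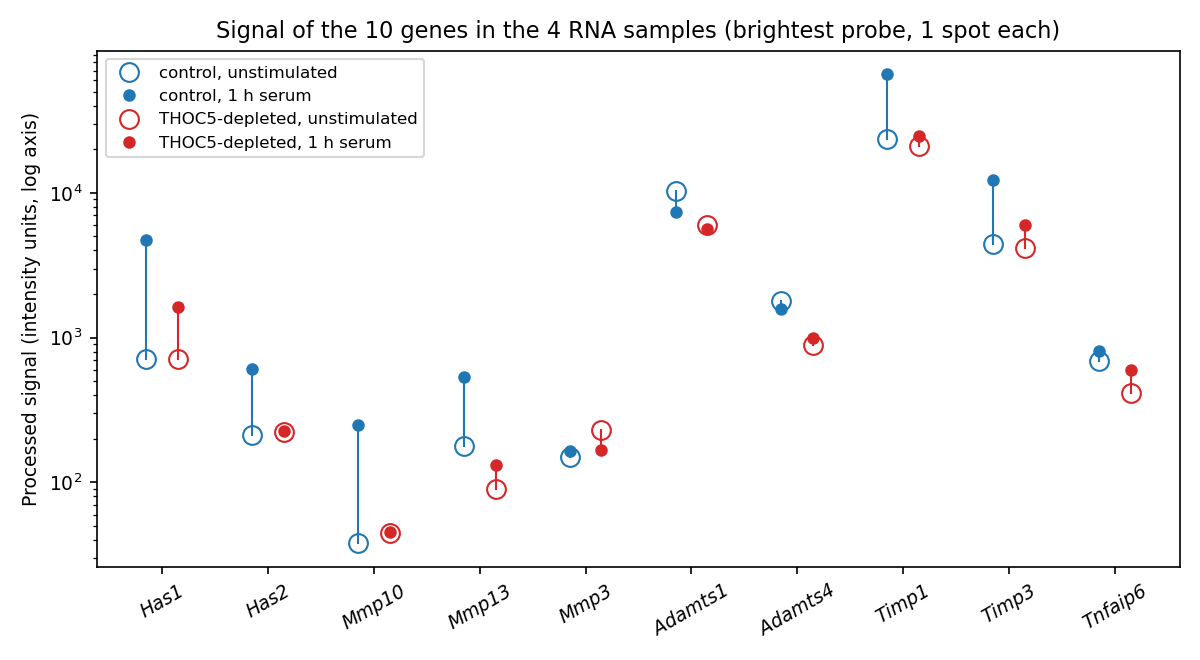
Processed signal (intensity units, log axis) of the brightest probe of each of the 10 genes in unstimulated (open circles) and serum-stimulated (filled circles) control (blue) and THOC5-depleted (red) cells, 1 spot per value. The serum-stimulated control value stands above the other samples for Has1, Has2, Mmp10, Mmp13, Timp1 and Timp3, and the open and filled circles coincide for Has2 and Mmp10 in THOC5-depleted cells.

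Adamts1 and Adamts4 encode secreted proteases with thrombospondin motifs that cleave aggrecan and versican. Adamts1 (chromosome 16, 85795044 to 85795103, minus strand) had signals of 10350 and 7351 in control cells, against 6009 and 5646 in THOC5-depleted cells. The unstimulated control sample was the highest. The serum ratios were 0.710 and 0.940, and neither passed 2-fold; without dye normalization they were 1.36 and 1.64.

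Adamts4 (chromosome 1, 173189952 to 173190011) had signals of 1801 and 1566 in control cells, against 893.8 and 996.2 in THOC5-depleted cells. Both control signals were above both THOC5-depleted signals, and the serum ratios of 0.869 and 1.11 lay on either side of 1. Without dye normalization they were 1.54 and 1.86. Neither protease gene therefore showed the pattern of the hyaluronan synthases, and their fold reductions were 0.756 (Adamts1) and 0.780 (Adamts4).

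Timp1 and Timp3 encode secreted inhibitors of metalloproteinases, and TIMP-3 also inhibits ADAMTS proteases and binds to the matrix. Timp1 (chromosome X, 20451802 to 20451861) gave signals of 23714 and 66033 in control cells, against 20976 and 24808 in THOC5-depleted cells. The stimulated control sample was well above the other samples. The serum ratio was 2.78 in control cells against 1.18 in THOC5-depleted cells, and the fold reduction was 2.35. Without dye normalization the ratios were 6.11 and 2.30, beside medians of 1.77 and 1.68 over all genes.

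Timp3 (chromosome 10, 85811696 to 85811755) gave signals of 4433 and 12204 in control cells, against 4181 and 6037 in THOC5-depleted cells. Its serum ratios were 2.75 and 1.44, so that a smaller difference remained in THOC5-depleted cells. Its fold reduction, 1.91, was just under 2-fold. Without dye normalization it was 2.09, from ratios of 5.17 and 2.47. In control cells the ratios of both inhibitors were close to those of Has2 and Mmp13, between 2.75 and 2.99 for these 4 genes.

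Tnfaip6 encodes TSG-6, which is known as a product of inflammatory signals. Its brightest probe (chromosome 2, 51912073 to 51912132) gave signals of 694.9 and 807.3 in control cells, against 413.3 and 596.6 in THOC5-depleted cells. Without scaling between the arrays, the control signals were the higher ones. After Aquantile, this probe in THOC5-depleted cells was at 0.726 of control in unstimulated and at 0.902 in stimulated cells. The serum ratio was the higher one in THOC5-depleted cells, at 1.44 against 1.16 in control cells.

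The other Tnfaip6 probes lie 566 bases upstream and 69 bases downstream of this probe. From the most upstream to the most downstream probe, the control serum ratios were 1.12, 1.16 and 1.32 and those of THOC5-depleted cells 1.41, 1.44 and 1.56. The fold reductions were 0.796, 0.805 and 0.845. All 3 probes thus had the higher ratio in THOC5-depleted cells and none passed 2-fold. Without dye normalization the brightest probe had ratios of 2.08 and 2.45, beside medians of 1.77 and 1.68 over all genes. The most upstream probe was dim (40.3 to 58.9), so that its fold reduction differs from the others by less than the spread between spots of dim probes, and the most downstream one holds the AATAAA shown above.

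**Figure D3:**
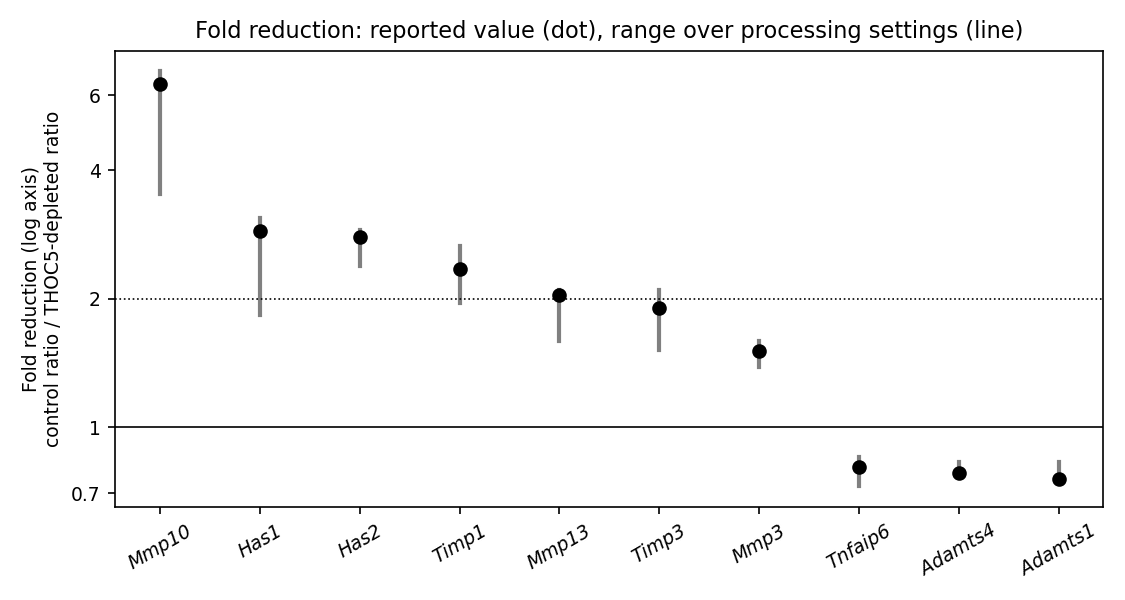
Fold reduction (control over THOC5-depleted serum ratio, log axis) of each gene, with the reported value as a dot and the lowest to highest value over the processing settings as a line; the dotted line marks 2-fold. Mmp10 and Has2 stay above 2-fold in every setting that gave a value, the lines of Has1, Timp1, Mmp13 and Timp3 cross it, and those of Adamts1, Adamts4 and Tnfaip6 stay below 1.

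Signals were also compared between the arrays in each channel after Aquantile normalization, which gives all arrays the same distribution of mean signals. In unstimulated cells, none of the 10 genes differed by 2-fold in either direction, while 2.03% of 19043 genes were lower and 2.23% higher by 2-fold or more in THOC5-depleted cells. In stimulated cells, 5 of the 10 genes (Mmp10, Mmp13, Has1, Has2 and Timp1) were lower by 2-fold or more in THOC5-depleted cells, against 2.23% of 18664 genes. This comparison shares the stimulated samples with the fold reduction and is another view of the same values.

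The genes fell into different arrangements in this comparison. For Has1 the log2 difference between THOC5-depleted and control cells was 0.29 in unstimulated and -1.24 in stimulated cells, for Has2 0.29 and -1.19, for Mmp10 0.40 and -2.27, and for Timp1 0.07 and -1.17. In these genes the stimulated level was lower and the unstimulated level was not. Without scaling between arrays, which shifts the median of all genes by -0.26 (log2), Has1, Timp1 and Timp3 were slightly lower in unstimulated cells as well, at 0.994, 0.885 and 0.943 of control.

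Mmp13 was lower in both channels, with log2 differences of -0.76 in unstimulated and -1.79 in stimulated cells. Adamts4 (-0.71 and -0.35), Adamts1 (-0.46 and -0.06) and Tnfaip6 (-0.46 and -0.15) had the more negative value in unstimulated cells. Mmp3 was the one gene with a higher value in both channels, 0.83 and 0.24. Timp3 had values of 0.24 and -0.69, and without scaling between arrays its stimulated level was 0.495 of control, past 2-fold. The error of these differences between arrays is not known.

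**Figure D4:**
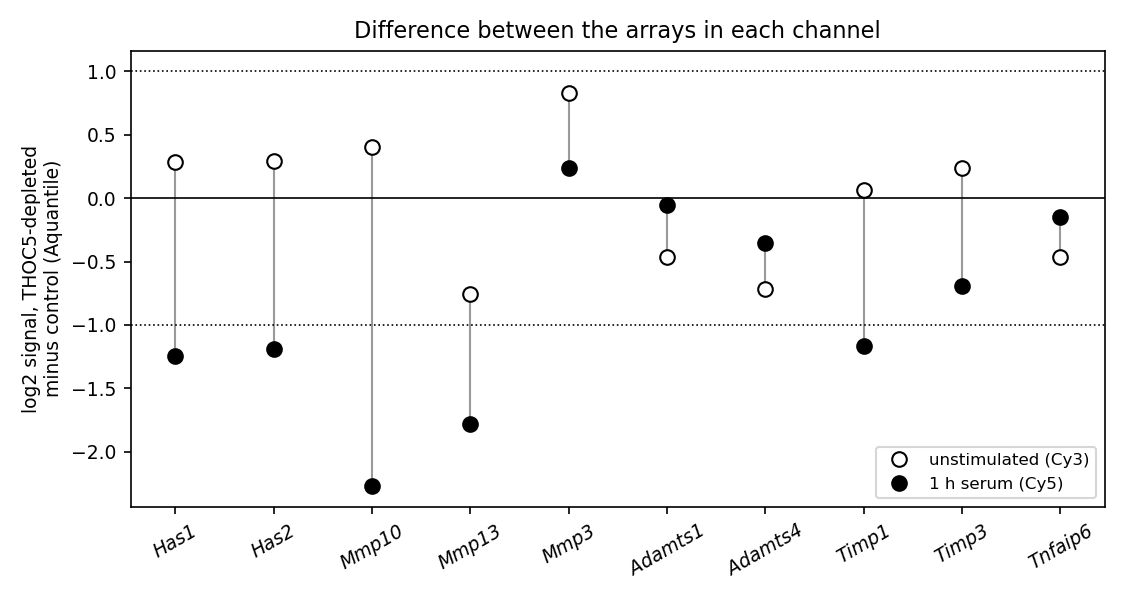
Log2 signal difference between THOC5-depleted and control cells after Aquantile normalization, in unstimulated (open) and serum-stimulated (filled) cells, for each of the 10 genes; dotted lines mark 2-fold. The open circles lie between the dotted lines for all 10 genes, and the filled circles of Has1, Has2, Mmp10, Mmp13 and Timp1 lie below -1.

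The wider families were read from 5 lists of matrix genes, described here by counts. Beside the 10 genes they held 66 others on the array, of which 40 could be compared in control cells. Of these, 1 had a serum ratio of 2 or more (Itih3, a heavy chain of inter-alpha-inhibitor, with ratios of 2.41 and 1.98 on the control and THOC5-depleted arrays, read by a dim probe) and 0 had a ratio of 0.5 or less, shares near the 2.65% and 1.73% of all genes. In THOC5-depleted cells 0 of 41 passed 2-fold in either direction, against 0.944% of all genes higher and 0.378% lower. For 34 of them the fold reduction ran from 0.678 to 1.48 with a median of 1.09, and 0 reached 2, against 1.16% of all genes.

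Among all 23 metalloproteinase genes, 11 were compared in control cells and 2 passed 2-fold, which were Mmp10 and Mmp13. The median serum ratio of the list was 0.965 in control and 1.00 in THOC5-depleted cells. Of 19 ADAMTS genes, 13 were compared and 0 passed in either direction, with medians of 0.809 and 0.858. The list of 5 inhibitors (Timp1 to Timp4 and Reck) had 2 genes past 2-fold in control cells, Timp1 and Timp3, and 0 in THOC5-depleted cells. Every gene that passed in these lists is one of the 10 genes, so these counts repeat theirs. Over all genes, 2.65% were higher and 1.73% lower by 2-fold in control cells, and 0.944% and 0.378% in THOC5-depleted cells.

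Of 14 genes for hyaluronan synthesis, breakdown and receptors, 10 were compared in control cells and 2 passed, Has1 and Has2, with a list median of 1.26, and in THOC5-depleted cells 1 of 12 passed, Has1, with a median of 0.988. Of 15 genes of hyaluronan-binding matrix proteins, 11 were compared and 1 passed in control cells. In THOC5-depleted cells 0 of 10 passed, and the medians were 1.17 and 1.08. Beside the counts of both lists, 2.65% of all genes were higher by 2-fold in control and 0.944% in THOC5-depleted cells.

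These counts rest on the probe of each gene with the highest mean log2 signal over the 4 channels, and 22 of the 66 other genes had 25 further probes. Of the 10 of these that could be compared in control cells, 2 were 2-fold or more higher after serum (Hapln3 and Cd44) and 1 was lower (Adamts5), beside 2.65% and 1.73% of all genes. In THOC5-depleted cells 2 of 11 were higher (Hapln3 and Cd44) and 0 lower, beside 0.944% and 0.378%. These 3 genes are named here after their values were seen, since their probes disagreed. Hapln3, a link protein gene on the study's own list of serum-inducible genes, had signals of 163.8 and 278.0 in control cells, against 142.9 and 164.1 in THOC5-depleted cells, at its brightest probe, with serum ratios of 1.70 and 1.15. Its other probe was not well above background in unstimulated control cells and gave a ratio of at least 13.1 there, and of 3.64 in THOC5-depleted cells, so that the response of Hapln3 depends on the probe.

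For Cd44, the main hyaluronan receptor, the brightest probe had ratios of 1.63 and 1.20. Of its 3 other probes, 2 had control ratios close to this (1.51 and 1.60, with 1.53 and 0.94 in THOC5-depleted cells), and the third, with a signal of 22.7 in unstimulated control cells, had 3.34 and 2.66. For Adamts5, an aggrecan-cleaving protease, the other probe had ratios of 0.46 and 0.60 and the brightest probe 0.718 and 0.656. Of the 9 further probes well above background in all 4 channels, 0 had a fold reduction of 2, and the other Hapln3 probe, with a bound in control cells, had one of at least 3.59.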

How the data were processed

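Dual-color Agilent arrays were read for 1 sample of control and 1 of THOC5-depleted MEF cells, with Cy3 for unstimulated and Cy5 for serum-stimulated RNA. The authors deposited Agilent Feature Extraction 10.7.3.1 output (mm9 probe positions); per the file headers, its processed signals are intensity values after background subtraction and linear and LOWESS dye normalization, unscaled between arrays. The authors' deposited series table holds log10 ratios whose sign is missing (0 negative values against 18655 and 18600 in the scanner's log ratios, with medians of 0.0279 and 0.0222), so it entered one alternative, with signs taken from the scanner. The number of columns not mapped to a sample is 0.

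Here, spots marked as outliers (239 and 234 per array) were left out, spots of a probe were averaged as log2, and the brightest probe stood for a gene. Genes were called past 2-fold, with a dim channel raised to the lowest signal well above background (11.2 to 14.0 over the channels). Arrays were compared after Aquantile (limma 3.58.1, R 4.3.3). The calling procedure was tested on simulated data. Python 3.11.15, numpy 2.4.6, pandas 2.3.3 and matplotlib 3.10.9 were used. The number of arrays limits the precision, and no p-value is given.

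The 10 genes and the lists were chosen with earlier results of these data known, so their counts are descriptions. Named genes are the 10 genes, at most 3 genes past 2-fold per list, the 3 genes nearest to the gene with the highest control ratio, and Thoc5; marker genes and 3 genes whose probes disagreed are named beside these. Alternatives were normexp (offset 50) with loess, no dye normalization, the series table, a floor of 50, only signals well above background, a Cy5 signal above 200, the median over probes, outlier spots kept, other fold thresholds, ratios scaled to one spread, and other scalings between arrays. Promoter stretches are from RefSeq (GRCm38.p6), and no coordinates were converted between builds.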

Additional observations from a re-analysis of the deposited data

Results flagged for a closer look

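The serum ratio of Adamts4 was below 1 in control cells (0.869) and above 1 in THOC5-depleted cells (1.11), a difference of -0.36 in log2 (control minus THOC5-depleted). That of Mmp3 was above 1 in control cells (1.08) and below 1 in THOC5-depleted cells (0.720), a difference of 0.59. Both are listed because the 2 arrays lie on opposite sides of 1. The differences were not tested, since there was 1 array per condition, and none of these ratios passed 2-fold. Without dye normalization, where the median ratio of all genes was 1.77 in control and 1.68 in THOC5-depleted cells, all 4 ratios were above 1.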

How the results depend on the processing

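No paired analysis was possible because there was 1 array per condition, and for the same reason no replicate could be left out. All alternatives were run. Without dye normalization, the median serum ratio of the 10 genes was 4.97 (control) and 2.07 (THOC5-depleted), 7 genes passed 2-fold in control cells (29.5% of all genes did) and 5 in THOC5-depleted cells (16.4%), and the median fold reduction was 2.09. With normexp and loess the median control ratio was 2.59. With a Cy5 signal above 200, which left 7 genes in THOC5-depleted cells, the median ratio there was 1.18 and 3 genes (0.957% of all genes) had a fold reduction of 2 or more. At a 4-fold threshold the counts were 2 in control cells (0.73% of all genes), 0 in THOC5-depleted cells (0.189%) and 1 for the fold reduction (0.145%). With ratios scaled to one spread, 2 genes (0.581% of all genes) had a fold reduction of 2 or more and the median was 1.59. In unstimulated cells, 1 gene (Adamts4, and 3.45% of all genes) was lower by 2-fold without scaling between arrays, with a median of 0.913 of control. At a 1.5-fold threshold 2 genes (Adamts4 and Mmp13, and 6.13% of all genes) were lower, and Mmp3 was higher at 1.78. In stimulated cells the median without scaling was 0.431 of control, against 0.524 with Aquantile, and 6 genes were lower by 2-fold (3.73% of all genes), with Timp3 at 0.495. For single genes, 24 values under alternatives moved by more than 1.5 times, and 7 lay on the other side of 1, with 0 of these being past 2-fold before. Several alternatives (median over probes, outlier spots kept, signals well above background) leave a gene read by 1 bright spot that is no outlier as it was, so agreement there says nothing of stability. The cause of these shifts was not tested. Among the fold reductions, that of Mmp10 moved most, from 6.39 to 3.53 with normexp and loess, which change background correction and dye normalization together.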
